A study of Mus musculus with 12 samples.

Results

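Voltage-gated calcium channels were described through 10 genes: the pore-forming alpha1 subunit genes Cacna1a, Cacna1b, Cacna1c, Cacna1d, Cacna1e, Cacna1g and Cacna1h, and the alpha2delta subunit genes Cacna2d1, Cacna2d2 and Cacna2d3. They were taken by symbol from a table of 25674 genes, and all 10 were found and had enough counts to be tested. RNA had been measured in spiral ganglion neurons, the neurons that link the hair cells of the cochlea with the brainstem, sorted from E14.5 mouse embryos. Both genotypes carried a Neurod1Cre transgene, built from a Neurod1 BAC, and the Rosa26 tdTomato reporter (Ai14). The 6 Control samples had only these, per the labels, and the 6 Isl1CKO samples also had Isl1 alleles flanked by loxP sites (Neurod1Cre;Isl1loxP/loxP), so that Cre can delete part of Isl1, a LIM homeodomain transcription factor gene, in cells that have expressed Neurod1. Each sample held 100 tdTomato-positive neurons from both inner ears of 1 embryo of either sex. The embryos came from several litters, which the labels do not assign to samples.

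These channels open when the membrane depolarizes and let calcium into the cell. The alpha1 subunit forms the pore and sets the channel type. L-type channels give long-lasting currents, P/Q-, N- and R-type channels serve transmitter release and dendritic calcium entry in neurons, and T-type channels open near the resting potential. The extracellular alpha2delta subunit and the cytoplasmic beta subunit help bring the pore to the membrane and tune its gating, and in auditory neurons calcium entry also shapes firing, survival and synapse formation.

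Total counts ran from 11895603 to 13857480 per library, and 3 counts, used as the floor, were 0.219 to 0.250 CPM (counts scaled to a common effective library size). These limits take in counting error alone. The counts are of reads, and PCR copies of a molecule may be among them. The labels call the samples technical replicates in a tag and biological replicates in the design text. Control 3 and 4 held Xist (398 and 271 CPM) with Y-linked means of 0.292 and 0.426 CPM, and the other controls had Y-linked means of 102 to 117 CPM. Isl1CKO 6 held Xist at 185 CPM and a Y-linked mean of 0.267 CPM, against Y-linked means of 111 and 113 CPM in Isl1CKO 1 and 4. The samples of a group were thus not all copies of 1 embryo. If the tag is right for samples of the same sex, p-values measure technical spread in part. Libraries Isl1CKO 2, 3 and 5 went against the statement of 1 embryo per sample: they held Xist (62.9, 77.8 and 132 CPM) together with Y-linked transcripts (mean 61.0, 87.3 and 35.7 CPM), and results are given without them where a call changed. The mitochondrial share of counts was 1.05 to 1.65% in Control and 0.845 to 1.02% in Isl1CKO, with no overlap, so it moved with genotype. Isl1 itself was at 1171, 1572 and 1777 CPM (lowest, median and highest) in Control and 1050, 1424 and 1589 CPM in Isl1CKO, which overlapped (log2 fold change -0.15, SE 0.11, edgeR adjusted p = 0.460). Counts over the whole gene cannot show removal of the floxed segment, so they do not check the labels. The 10 neuron markers summed to 13443 to 15372 CPM in Control and 11649 to 12937 CPM in Isl1CKO, with no overlap, and 3 of them fell and 2 rose. The lower sum lay mainly in the neurofilament genes Nefm (medians of 3391 in Control and 852 CPM in Isl1CKO) and Nefl (1487 and 577 CPM). Elavl4 fell as well, and Stmn2 and Rbfox3 rose. Tubb3, Dcx and Map2 had higher medians in Isl1CKO and were not called. The 10 spiral ganglion neuron markers summed to 5795 to 7868 and 5001 to 6982 CPM, which overlapped, but 4 of them fell (log2 fold changes of -3.47 for Runx1, -2.81 for Ntrk2, -2.71 for Gata3 and -1.40 for Ntrk3) and Neurod1 rose (0.88), so markers of the sorted cells moved with genotype too. Markers of cells that a sort could also hold are given beside the results below.

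Of the 10 calcium channel genes, 2 passed the test between genotypes (edgeR quasi-likelihood test, Benjamini-Hochberg adjusted p under 0.05 over all 14813 tested genes). Cacna1e, the pore of R-type channels, was 2.94-fold lower in Isl1CKO, and Cacna2d1, an alpha2delta subunit, was 3.65-fold higher. The same 2 genes were those with no overlap between the groups. Among all tested genes 10.2% were called, 5.19% lower and 5.01% higher, and 6.78% did not overlap between groups. With 10 genes, 2 calls lie within about 1 gene of that background share. The median log2 fold change (Isl1CKO minus Control) was -0.65 over the 10 genes and 0.0045 over all tested genes, with 7 of the 10 below 0. Unadjusted p-values under 0.05 were found for 6 of the 10 and for 3454 of the 14813 tested genes. Without Isl1CKO 2, 3 and 5 the same 2 genes were called, beside 4.73% of 16222 tested genes.

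**Figure D1:**
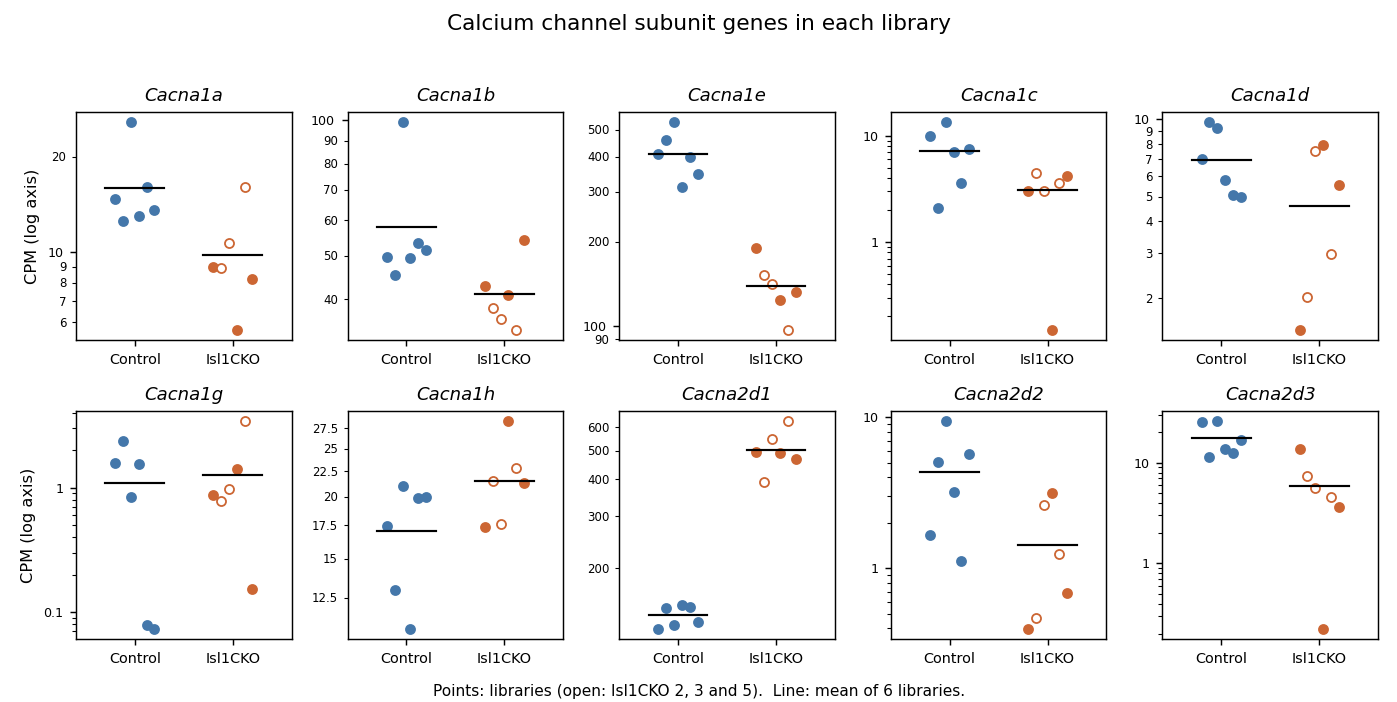
Level of each of the 10 calcium channel genes in the 12 libraries, in CPM on a log axis that differs between panels. Points are libraries, open points are Isl1CKO 2, 3 and 5, and lines are means of 6. Only in the panels of Cacna1e and Cacna2d1 do the groups separate: Cacna1e ran from 312 to 531 CPM in Control and from 97.0 to 190 CPM in Isl1CKO, and Cacna2d1 from 124 to 150 and from 393 to 631 CPM.

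Among the P/Q-, N- and R-type pore genes, Cacna1e gave the difference that passed the test. Cacna1e (ENSMUSG00000004110, chr1:154390731-154884501, minus strand, GRCm38) was at 312, 405 and 531 CPM (lowest, median and highest of 6) in Control and at 97.0, 136 and 190 CPM in Isl1CKO. The highest Isl1CKO library, Isl1CKO 1, lay below the lowest Control library, Control 4, and the other Isl1CKO libraries were lower still. Its mean fell from 410 ± 78.3 to 139 ± 31.0 CPM (SD, n = 6 each), a log2 fold change of -1.56 (SE 0.15, 95% interval -1.89 to -1.23, edgeR adjusted p = 1.01e-05). Isl1CKO 5, one of the libraries with transcripts of both sexes, held the lowest value, and without the 3 such libraries its log2 fold change came to -1.47 (edgeR adjusted p = 0.00102). With the mitochondrial share as a covariate it was -1.28 (edgeR adjusted p = 0.000708).

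Cacna1b, the N-type pore gene (ENSMUSG00000004113, chr2:24603887-24763152, minus strand), was at 45.2, 50.7 and 98.9 CPM in Control and at 34.2, 39.6 and 54.3 CPM in Isl1CKO. The groups overlapped, and Control 3 stood well above the other controls, which ended at 53.3 CPM. Its log2 fold change was -0.50 (SE 0.19, 95% interval -0.90 to -0.09) and did not pass the adjusted test (edgeR adjusted p = 0.121). Without Control 3 it was -0.28, and with the mitochondrial share as a covariate 0.022, a change of sign. That share was itself highest in Control 3, at 1.65%.

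Cacna1a, the P/Q-type pore gene (ENSMUSG00000034656, chr8:84388440-84640246, plus strand), was at 12.5, 14.1 and 25.7 CPM in Control and at 5.68, 8.94 and 16.0 CPM in Isl1CKO. Control 3 was again the highest control, and Isl1CKO 5 was the library of its group that reached into the Control range. Its log2 fold change came to -0.71 (SE 0.27, 95% interval -1.27 to -0.14, edgeR adjusted p = 0.115), to -0.52 without Control 3 and to -0.90 without Isl1CKO 5, where it passed the threshold (edgeR adjusted p = 0.0429). With the mitochondrial share as a covariate it was -0.24 (edgeR adjusted p = 0.804), and without Isl1CKO 2, 3 and 5 it was -1.07 (edgeR adjusted p = 0.0810). The gene shares 435 exonic bases with the opposite-strand gene Gm16183, which had 167 counts in all against 1991 for Cacna1a, and because the use of strand is not given in the sources used here, reads in that stretch cannot be assigned. The same holds for 589 exonic bases that Cacna1d shares with Chdh, 158 that Cacna1h shares with Tpsg1 and 82 that Cacna2d2 shares with Gm17141, whereas Cacna1e and Cacna2d1 share none.

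The L-type pore genes were low, and neither passed the test. Cacna1c (ENSMUSG00000051331, chr6:118587240-119196418, minus strand), best known as the pore of cardiac and smooth muscle L-type channels and also used by neurons, was at 2.07, 7.21 and 13.4 CPM in Control and at 0.149, 3.29 and 4.50 CPM in Isl1CKO. Its lowest value, in Isl1CKO 4, was 2 counts, under the floor, while the other 5 Isl1CKO libraries were at 3.01 CPM or more. The log2 fold change was -1.23 (SE 0.58, 95% interval -2.47 to 0.01, edgeR adjusted p = 0.218), and -0.45 with the mitochondrial share as a covariate. Cacna1d, the L-type pore gene that hair cells use at their synapses (ENSMUSG00000015968, chr14:30039939-30491455, minus strand), was at 4.98, 6.38 and 9.77 CPM in Control and at 1.50, 4.28 and 7.92 CPM in Isl1CKO. The Isl1CKO libraries were spread on both sides of the lowest control, and the log2 fold change was -0.60 (SE 0.42, 95% interval -1.50 to 0.29, edgeR adjusted p = 0.429). Markers of hair cells, the cells best known for Cacna1d, summed to 308 to 612 CPM in Control and 333 to 641 CPM in Isl1CKO. Most of it was Myo6, and the defining gene Pou4f3 was at 0 in 9 libraries. Of the 5 hair cell markers tested, 1 was called: Ccer2 fell from a median of 40.1 CPM in Control to 3.22 CPM in Isl1CKO (log2 fold change -3.26, edgeR adjusted p = 0.000154).

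The T-type pore genes did not pass the test either. Cacna1h (ENSMUSG00000024112, chr17:25374285-25433783, minus strand) was at 10.8, 18.7 and 21.0 CPM in Control and at 17.3, 21.5 and 28.5 CPM in Isl1CKO, with overlapping groups and a log2 fold change of 0.34 (SE 0.20, 95% interval -0.09 to 0.77, edgeR adjusted p = 0.339). Cacna1g (ENSMUSG00000020866, chr11:94408391-94474198, minus strand) was close to the floor, at 0.073, 1.19 and 2.37 CPM in Control and at 0.152, 0.925 and 3.43 CPM in Isl1CKO. Control 5 and 6 held 1 count each and Isl1CKO 6 held 2, so its interval was wide (log2 fold change 0.23, SE 0.79, 95% interval -1.46 to 1.92, edgeR adjusted p = 0.899), and its sign changed when Control 5, Control 6 or Isl1CKO 5 was left out.

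Of the alpha2delta genes, Cacna2d1 rose. It encodes an alpha2delta form that binds gabapentin and thrombospondin and that, like alpha2delta subunits in general, promotes channel trafficking. Cacna2d1 (ENSMUSG00000040118, chr5:15934691-16374511, plus strand) was at 124, 139 and 150 CPM in Control and at 393, 493 and 631 CPM in Isl1CKO. The controls lay close together, with a coefficient of variation of 8.12% against 15.8% in Isl1CKO, and every Isl1CKO library was above every control. The mean was 138 ± 11.2 CPM in Control and 505 ± 79.6 CPM in Isl1CKO (SD, n = 6 each), a log2 fold change of 1.87 (SE 0.10, 95% interval 1.65 to 2.09, edgeR adjusted p = 5.1e-08). It was 1.81 without Isl1CKO 2, 3 and 5 and 1.78 with the mitochondrial share as a covariate.

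The other alpha2delta genes were lower in level and did not pass the test. Cacna2d3 (ENSMUSG00000021991, chr14:28904943-29721864, minus strand), whose loss in mice impairs hearing and auditory nerve synapses, was at 11.5, 15.4 and 25.9 CPM in Control and at 0.224, 5.08 and 13.6 CPM in Isl1CKO. Isl1CKO 1 alone of its group reached the Control range, and Isl1CKO 4 was at the floor with 3 counts. The log2 fold change was -1.59 (SE 0.55, 95% interval -2.77 to -0.41) with edgeR adjusted p = 0.0853, and it passed the threshold when Isl1CKO 1 was left out (-2.04, edgeR adjusted p = 0.0308), when Isl1CKO 4 was left out (-1.34, edgeR adjusted p = 0.0366) and with DESeq2 and limma-voom. With the mitochondrial share as a covariate Cacna2d3 was at -0.95 (edgeR adjusted p = 0.571), and without Isl1CKO 2, 3 and 5 at -1.60 (edgeR adjusted p = 0.334). Cacna2d2 (ENSMUSG00000010066, chr9:107399612-107529343, plus strand), the form mutated in ducky mice, was at 1.11, 4.11 and 9.43 CPM in Control and at 0.396, 0.963 and 3.14 CPM in Isl1CKO, with a log2 fold change of -1.60 (SE 0.64, 95% interval -2.96 to -0.25, edgeR adjusted p = 0.136). The groups overlapped for both.

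**Figure D2:**
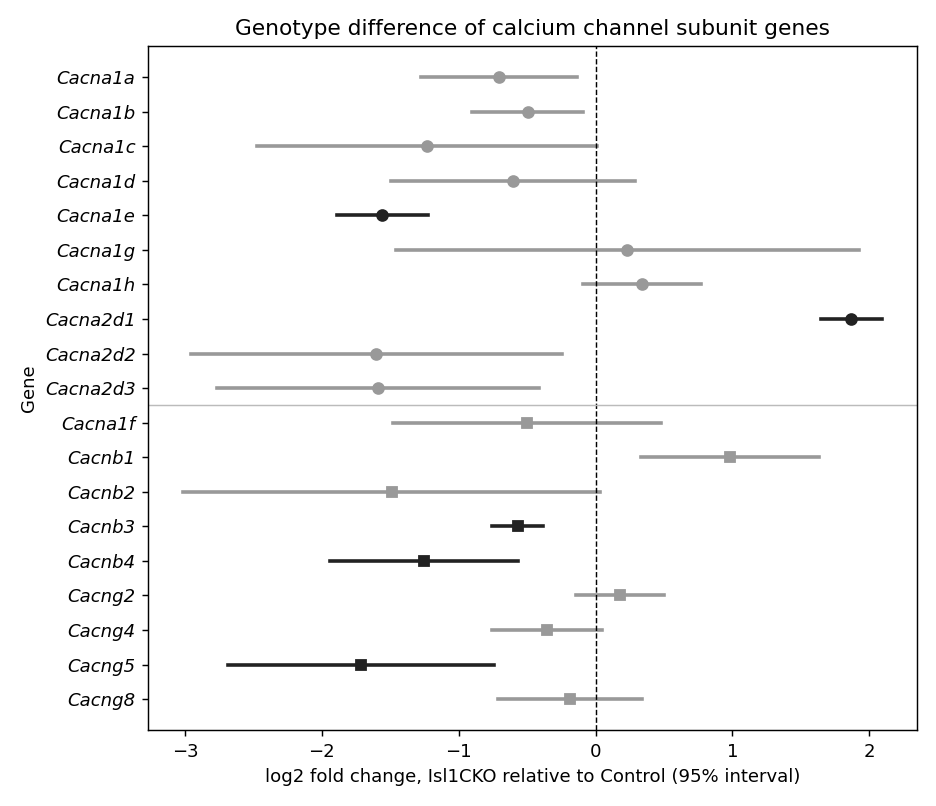
Log2 fold change (Isl1CKO relative to Control, edgeR, 6 libraries each) of the 10 genes (circles, above the line) and of the 9 further channel subunit genes tested (squares, below it). Bars are 95% intervals not adjusted for the number of genes, and black marks an adjusted p under 0.05. Cacna1e (-1.56) and Cacna2d1 (1.87) have the narrowest intervals apart from 0 among the circles, and Cacna1g (0.23) and Cacna2d2 (-1.60) have wide ones.

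Promoter windows of 300 bases (250 before and 50 after the transcription start) in RefSeq, on GRCm38.p6, were found for 7 of the 10 genes, 10 windows in all. Cacna1a, Cacna1g and Cacna1h had none in that table. The 250 bases before the start are shown for Cacna2d1, which rose, and Cacna2d3, the alpha2delta gene with the next highest level, since both starts equal the first GENCODE start and no GENCODE exon lies in them. They are chr5:15934441-15934690 (plus strand) and chr14:29721865-29722114 (minus strand), written 5′ to 3′ in the direction of transcription, with GC boxes (GGGCGG or its reverse complement CCGCCC) in capitals.
Cacna2d1: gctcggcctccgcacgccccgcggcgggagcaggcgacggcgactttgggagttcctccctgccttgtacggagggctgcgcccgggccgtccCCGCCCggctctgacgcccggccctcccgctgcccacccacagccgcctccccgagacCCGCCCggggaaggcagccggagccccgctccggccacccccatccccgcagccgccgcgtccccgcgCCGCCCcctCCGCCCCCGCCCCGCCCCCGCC
Cacna2d3: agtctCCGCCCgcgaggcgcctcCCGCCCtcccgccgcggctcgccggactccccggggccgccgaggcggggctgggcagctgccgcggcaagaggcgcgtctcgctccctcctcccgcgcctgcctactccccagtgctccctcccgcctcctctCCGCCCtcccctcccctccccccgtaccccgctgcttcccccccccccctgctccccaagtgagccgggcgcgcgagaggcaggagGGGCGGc
The Cacna2d1 stretch held 6 whole GC boxes, the nearest beginning 11 bases before the start, and another, cut off at the end of the line, ran across the start. The Cacna2d3 stretch held 4. Both windows were rich in G and C, at 80.0% and 81.3%, against a median of 52.7% over all 32851 RefSeq windows of this length. A GC box was found in 6 of the 10 windows and in 35.7% of all windows, and this motif was looked for after the sequences had been seen. TAATG (or CATTA), a core that homeodomain proteins bind, was in 0 of the 10 windows and in 26.8% of all, and the E-box CAGATG (or CATCTG) was in 2 of the 10, both of Cacna1c, and in 17.2% of all. The Cacna1e window had 55.3% G and C, no GC box, and lay 158581 bases inside the gene from its first GENCODE start, so that it is the window of an internal start. These letter matches describe the windows and are not binding sites.

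Per kilobase of exon, Cacna1e was the highest of the 10 genes in Control and Cacna2d1 in Isl1CKO. The Control order by mean level in CPM per kilobase (SD, n = 6) was Cacna1e 16.2 ± 3.11, Cacna2d1 11.1 ± 0.904, Cacna1b 5.84 ± 2.03, Cacna2d3 2.02 ± 0.742, Cacna1h 1.74 ± 0.431 and Cacna1a 1.39 ± 0.435, followed by Cacna1d, Cacna2d2, Cacna1c and Cacna1g between 0.552 and 0.107. Neighbours whose Control ranges did not overlap were Cacna1e and Cacna2d1, Cacna2d1 and Cacna1b, Cacna1b and Cacna2d3, and Cacna1a and Cacna1d, and all other neighbours overlapped. In Isl1CKO the order began with Cacna2d1 at 40.7 ± 6.41, Cacna1e at 5.52 ± 1.23, Cacna1b at 4.14 ± 0.721 and Cacna1h at 2.20 ± 0.416 CPM per kilobase. There Cacna1e and Cacna1b overlapped, and so did all neighbours after Cacna1h, from Cacna1a at 0.854 down to Cacna1g at 0.125. Lengths were the union of a gene's GENCODE exons, and with the longest transcript instead only Cacna1d and Cacna2d2 in Control and Cacna1a and Cacna2d3 in Isl1CKO changed places.

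The summed levels of pore and of alpha2delta transcripts differed between genotypes, mainly through Cacna1e and Cacna2d1. The 7 pore genes summed to 20.5 to 36.9 CPM per kilobase in Control and 11.8 to 14.7 in Isl1CKO, and the 3 alpha2delta genes to 13.1 to 14.51 and 32.6 to 51.5. Neither sum overlapped between the groups, and Cacna1e and Cacna2d1 made up most of each in Control. Each of the other genes overlapped between the groups, and Cacna2d2 and Cacna2d3 had lower medians in Isl1CKO. The sums therefore follow Cacna1e and Cacna2d1 in large part and do not show a shift of each class. Within the pore sum, Cacna1e took 57.1 to 69.2% in Control and 32.7 to 51.0% in Isl1CKO. The share of Cacna1b was 17.3 to 27.0% and 28.4 to 38.3%, that of the T-type genes 5.94 to 8.95% and 12.6 to 23.1%, and that of the L-type genes 2.26 to 4.00% and 1.77 to 5.77%, of which only the L-type ranges overlapped. Within the alpha2delta sum, Cacna2d1 took 71.3 to 88.4% in Control and 96.1 to 98.9% in Isl1CKO. Shares add up to the whole, so the change of Cacna1e or Cacna2d1 moves the shares of the others, and the higher share of Cacna1b came with a lower median level. In bulk samples fewer cells with a transcript and less of it per cell cannot be told apart.

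**Figure D3:**
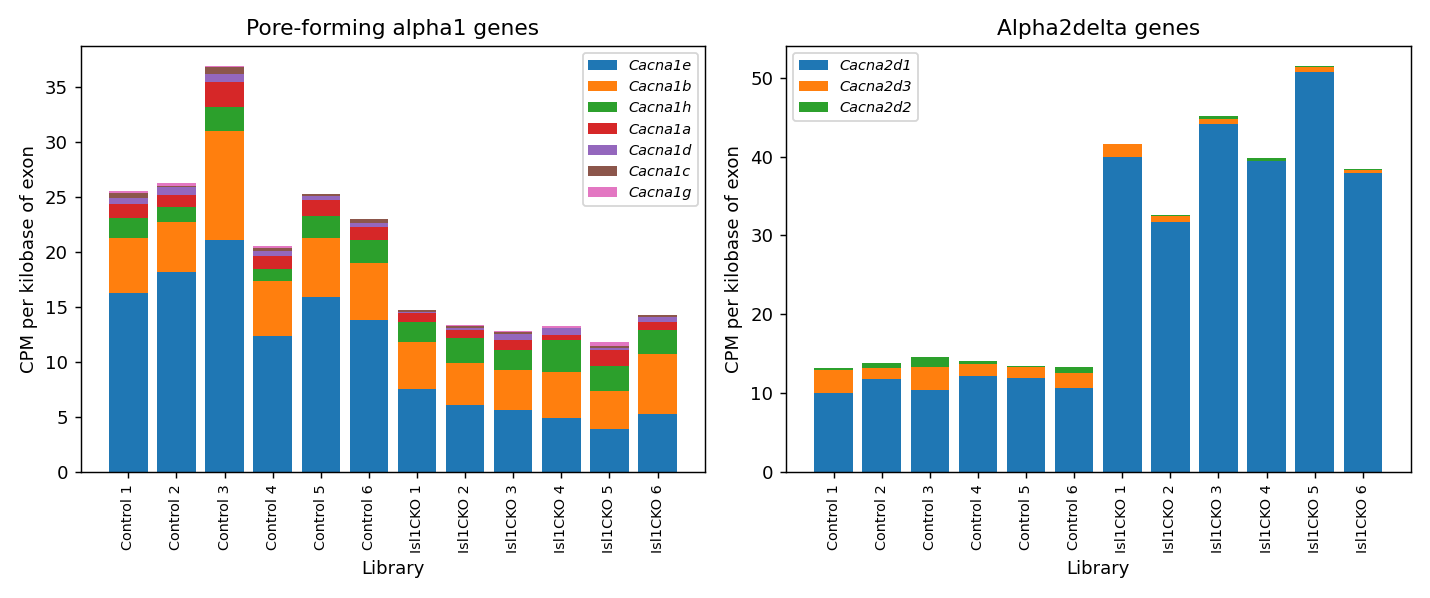
Summed level of the pore genes and of the alpha2delta genes in each library, in CPM per kilobase of exon on a linear axis from 0, divided by gene. The pore sums of all Isl1CKO libraries (11.8 to 14.7) lie below those of all controls (20.5 to 36.9), and the alpha2delta sums lie above them (32.6 to 51.5 against 13.1 to 14.51).

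Control 3 was the highest control for 7 of the 10 genes (Cacna1a, Cacna1b, Cacna1c, Cacna1e, Cacna1h, Cacna2d2 and Cacna2d3), and Control 2 was the lowest for 4 (Cacna1a, Cacna1b, Cacna1c and Cacna2d3). Among the Isl1CKO libraries none was the highest for more than 3. Around the group means, log2(CPM + 1) of Cacna1c and Cacna2d3 had the highest correlation of any pair (Pearson r = 0.78 over 12 libraries), followed by Cacna1d and Cacna2d2 (0.65), and the lowest were Cacna1d with Cacna2d3 (-0.60) and Cacna1e with Cacna2d1 (-0.50). These values share libraries and scaling and are given as a description.

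The genes most like Cacna1e across the 12 libraries, among 9912 genes of sufficient level, were Ttll7 (Pearson r = 0.98), a tubulin polyglutamylase gene, Snx18 (0.98), a sorting nexin gene, and Agfg1 (0.98). Ttll7 was at 444 ± 41.8 CPM in Control and 55.1 ± 25.4 CPM in Isl1CKO (log2 fold change -3.01, edgeR adjusted p = 3.24e-06). Those most like Cacna2d1 were Sytl4 (0.99), a synaptotagmin-like gene, Brinp3 (0.99) and the noncoding gene Lhx1os (0.98). Brinp3 was at 0.416 ± 0.348 CPM in Control and 161 ± 53.0 CPM in Isl1CKO. All 6 differ between genotypes, which raises r, and around the group means r was 0.51 to 0.82.

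Of the 16 further channel subunit genes, 14 were in the table, 9 were tested, and 3 fell, with none called higher, a median log2 fold change of -0.50 and 1 without overlap. Over all tested genes 10.2% were called and 6.78% did not overlap. Cacnb3, the beta subunit gene with the highest counts, was at 386, 405 and 490 CPM in Control and at 257, 266 and 343 CPM in Isl1CKO, with no overlap (log2 fold change -0.57, SE 0.09, edgeR adjusted p = 0.000614). Cacnb4, the beta subunit gene mutated in lethargic mice, was at 16.6, 26.8 and 33.1 CPM and at 4.96, 10.1 and 18.1 CPM (log2 fold change -1.25, SE 0.32, edgeR adjusted p = 0.0212). Cacng5, a gamma subunit and AMPA receptor regulator gene, was at 32.5, 69.6 and 158 CPM and at 9.54, 17.7 and 52.7 CPM (log2 fold change -1.72, SE 0.45, edgeR adjusted p = 0.0263). The last 2 overlapped between groups. Cacnb1, another beta subunit gene, went the other way but missed the threshold. It was at 3.67, 6.31 and 10.0 CPM in Control and at 5.80, 12.2 and 16.6 CPM in Isl1CKO, with overlap (log2 fold change 0.98, SE 0.30, edgeR adjusted p = 0.0543). Cacnb1 was called higher with DESeq2, limma-voom, the replicate number as a block, the filter at a mean of 5 CPM, and without Control 4 or Isl1CKO 3. Without Isl1CKO 2, 3 and 5, and with the mitochondrial share as a covariate, Cacnb3 alone remained called (edgeR adjusted p = 0.0213 and 0.00813). Cacnb4 also missed the threshold without Isl1CKO 6 (edgeR adjusted p = 0.0504), and Cacng5 without Control 1, Control 6, Isl1CKO 4, Isl1CKO 5 or Isl1CKO 6, up to an edgeR adjusted p of 0.0613.

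Among 30 genes of channel partners (active zone and release proteins, calmodulins and other pore-binding proteins, RGK GTPases and thrombospondins), 25 were tested and 3 rose, with a median log2 fold change of -0.089. Calls made up 12% of those tested, close to the 10.2% over all tested genes. All 3 encode RGK GTPases, small proteins known to bind beta subunits and inhibit the channels. Rrad was at 1.17, 5.68 and 12.0 CPM in Control and at 11.7, 23.4 and 55.6 CPM in Isl1CKO (log2 fold change 2.10, SE 0.51, edgeR adjusted p = 0.0162). Rem2 was at 2.82, 6.37 and 10.2 CPM and at 8.16, 19.1 and 35.3 CPM (1.69, SE 0.39, edgeR adjusted p = 0.0110). Gem was at 0.074, 0.266 and 1.26 CPM and at 0.075, 3.69 and 5.15 CPM (2.67, SE 0.81, edgeR adjusted p = 0.0480). Each overlapped between groups through 1 or a few libraries, and 3 controls had Gem at or under the floor. Isl1CKO 5 held the highest Rrad and Rem2. Without Isl1CKO 2, 3 and 5 Gem alone was called (edgeR adjusted p = 0.0414, against 0.130 for Rrad and 0.126 for Rem2), and with the mitochondrial share as a covariate none was (0.476, 0.151 and 0.355 for Rrad, Rem2 and Gem). Gem also missed the threshold on leaving out any library but Control 4 or Isl1CKO 3, up to an edgeR adjusted p of 0.102. It was not called with limma-voom (limma adjusted p = 0.134), with no filter on low counts (edgeR adjusted p = 0.0758) or with the replicate number as a block (edgeR adjusted p = 0.0502) either. The fourth RGK gene, Rem1, was too low to test.

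Of 44 genes for calcium buffers, pumps, stores and calcium-dependent enzymes, 36 were tested, 5 fell and 3 rose, and the median log2 fold change was 0.015. Calls made up 22.2% of those tested, against 10.2% over all tested genes. The groups did not overlap for 4 of them, and for 6.78% of all tested genes. The buffers Calb1 and Pvalb fell most. Calb1 was at 260, 539 and 613 CPM in Control and at 14.51, 57.9 and 210 CPM in Isl1CKO (log2 fold change -2.34, SE 0.57, edgeR adjusted p = 0.0228). Pvalb was at 141, 276 and 442 CPM and at 4.63, 61.5 and 82.0 CPM (-2.34, SE 0.48, edgeR adjusted p = 0.00654). Neither overlapped between groups. The neuronal calcium sensors moved in both directions, also without overlap: Hpcal1 fell (-1.13, SE 0.14, edgeR adjusted p = 0.00011) and Hpca rose (0.99, SE 0.21, edgeR adjusted p = 0.00556). Ryr3, a store release channel gene, and Atp2a2, the SERCA pump gene, had log2 fold changes of -1.58 and -0.53 and fell as well (edgeR adjusted p = 0.0146 and 0.00708). Camk2g, a kinase gene, and Ppp3ca, the calcineurin catalytic subunit gene, rose by 0.42 each (edgeR adjusted p = 0.0231 and 0.0217). Without Isl1CKO 2, 3 and 5 Calb1, Hpcal1 and Ryr3 remained called, and with the mitochondrial share as a covariate Hpcal1, Hpca, Camk2g and Ppp3ca did. Camk2g and Ppp3ca each missed the threshold without 1 of several libraries (Control 5, Control 6 or Isl1CKO 2 for Camk2g, and Control 6, Isl1CKO 2 or Isl1CKO 5 for Ppp3ca), up to an edgeR adjusted p of 0.0590. Ppp3ca also missed it with the replicate number as a block (edgeR adjusted p = 0.0745).

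**Figure D4:**
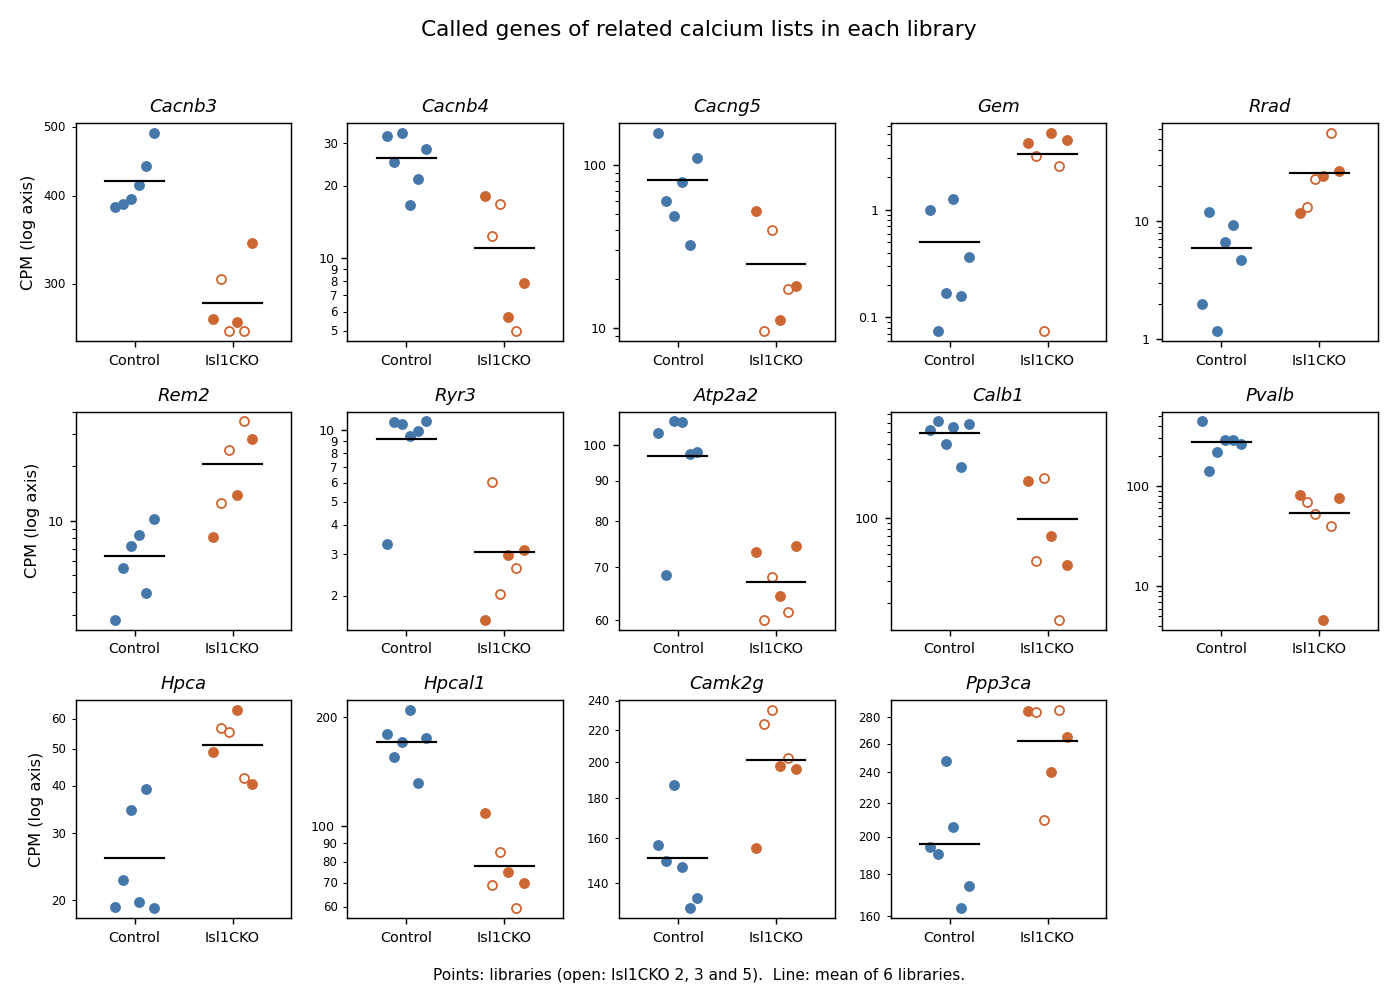
Level in each library, in CPM on log axes, of the genes called among the further channel subunits, the channel partners and the calcium handling genes. Points are libraries, open points are Isl1CKO 2, 3 and 5, and lines are means of 6. Cacnb3, Calb1, Pvalb, Hpcal1 and Hpca separate the groups, and the RGK genes Rrad, Rem2 and Gem overlap.

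Markers of other cells that a sort could hold were compared over whole lists. Schwann and satellite cell markers, 10 of 10 in the table, summed to 212 to 381 CPM in Control and 91.7 to 390 CPM in Isl1CKO, and macrophage markers to 2.07 to 394 and 1.46 to 749 CPM. Both overlapped between groups. As covariates, the mean log2(CPM + 1) of each of these lists was used, not the sums. Cacna1e and Cacna2d1 then stayed called, at log2 fold changes of -1.47 and 1.93, and 1060 of all genes were called against 1511. In that fit Cacnb4, Gem, Ryr3 and Ppp3ca missed the threshold (edgeR adjusted p = 0.103, 0.246, 0.0699 and 0.0846). Smooth muscle and cardiac markers, relevant to Cacna1c, summed to 21.4 to 90.3 and 66.6 to 249 CPM, nearly all of it Actc1, which rose (log2 fold change 1.71, edgeR adjusted p = 0.00914), while Des was at 0 in 8 libraries. Mesenchyme markers summed to 38.5 to 84.9 and 71.6 to 122 CPM. Of the 4 tested, 2 were called higher. They were Tbx18 (medians of 0.701 in Control and 38.4 CPM in Isl1CKO, log2 fold change 5.18) and Col3a1 (2.21 and 12.7 CPM, 2.40). Pou3f4, the mesenchyme marker with the highest Control median, went the other way (51.7 and 31.2 CPM) and was not called (edgeR adjusted p = 0.143). Endothelial markers summed to 0.512 to 3.11 and 0.610 to 34.3 CPM. The part of these cells, and of the mitochondrial share, in the results was not tested beyond these values.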

How the data were processed

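The authors deposited raw counts, whole numbers of reads per gene and not normalized, for 25674 Ensembl genes in 12 libraries. The submitters' processing notes name cutadapt 1.18, Bowtie 1.2.2, STAR 2.7.0c, featureCounts and GRCm38.p6, without roles. The use of strand is not given in the sources used here. Each column name gives its group and replicate number, which mapped it to a sample, and 25620 identifiers had a symbol. Coordinates come from GENCODE release M21 on GRCm38.

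edgeR 4.0.16 (R 4.3.3) tested the genotypes with the robust quasi-likelihood F-test after filterByExpr (minimum count 10) and TMM scaling, with no covariate, all 12 libraries and Benjamini-Hochberg adjustment over 14813 genes at 0.05. The standard error is the absolute log2 fold change divided by the square root of F. The script was tested on simulated data. Alternatives included DESeq2 1.42.0 and limma-voom (limma 3.58.1). Same-numbered libraries of the groups deviated together weakly at most (Pearson r of -0.056 to 0.152), and the replicate number as a block was an alternative. The smallest chi-square per degree of freedom between libraries of 1 group was 19.1, so none was another library sequenced again. This value takes in counting error alone and cannot tell technical from biological replicates.

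The 10 genes, the related lists and the marker lists were chosen with earlier results of these data known. Cacnb1 was named in addition to the rule below because it lay just over the threshold. The text names all 10 genes, every called gene of a related list, Isl1, the defining markers, and the 3 genes most like the called gene with the smallest p in each direction by Pearson r of log2(CPM + 1), searched where the mean log2 CPM was 3 or more.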

Additional observations from a re-analysis of the deposited data

Results flagged for a closer look

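The 10 genes, the total counts and the mitochondrial share were checked in both groups, 24 sets of 6 libraries, for a highest or lowest library that stood apart from the other 5. Chance gives about 1.2 such cases, and 4 were found. Cacna1a was at 25.7 CPM in Control 3, against 12.5 to 16.1 CPM in the other controls. Cacna1b was at 98.9 CPM in Control 3, against 45.2 to 53.3 CPM. The mitochondrial share was 1.65% in Control 3, against 1.05 to 1.183%. Cacna1c was at 0.149 CPM in Isl1CKO 4, against 3.01 to 4.50 CPM in the other Isl1CKO libraries.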

How the results depend on the processing

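Cacna1e and Cacna2d1 were called in the same direction in all 22 alternatives, with log2 fold changes of -1.67 to -1.47 and 1.80 to 1.93 on leaving out 1 library. Of the other 8 genes, Cacna2d3 passed the threshold with DESeq2 (-1.59, DESeq2 adjusted p = 0.0179), with limma-voom (-2.19, limma adjusted p = 0.0361) and without Isl1CKO 1 or 4 (range over left-out libraries -2.04 to -1.34), and Cacna1a without Isl1CKO 5 (range -0.90 to -0.52). With the mitochondrial share as a covariate the sign turned for Cacna1b (0.022) and Cacna1g (-0.058), and Cacna1a (-0.24), Cacna1c (-0.45) and Cacna2d3 (-0.95) moved toward 0 by over 1.5 times. Cacna1g also turned without Isl1CKO 2, 3 and 5 (-0.41) and over left-out libraries (range -0.36 to 0.61; -0.016, -0.015 and -0.36 without Control 5, Control 6 and Isl1CKO 5). The cause of these shifts was not tested. Without Isl1CKO 2, 3 and 5, which leaves fewer samples, 1 further subunit, 1 partner, 3 calcium handling and 767 of all genes were called; with the mitochondrial covariate, 1, 0, 5 and 654, and on leaving out 1 library 1 to 4, 2 to 5, 6 to 10 and 1178 to 1517. At 1 further subunit (without Isl1CKO 6) and 5 partners (without Isl1CKO 3) single libraries moved the count by over 1.5 times. The count among the 10 genes was 2 or 3 throughout. Same-numbered libraries correlated at -0.056 to 0.152, and a library was closest to its own number in 4 of 12 cases. With the replicate number as a block 2 of the 10 genes and 1450 of all genes were called against 1511, and log2 fold changes were -0.73 for Cacna1a, -0.45 for Cacna1b, -1.29 for Cacna1c, -0.79 for Cacna1d, -1.56 for Cacna1e, 0.25 for Cacna1g, 0.35 for Cacna1h, 1.86 for Cacna2d1, -1.69 for Cacna2d2 and -1.94 for Cacna2d3. Filtering at a mean of 5 CPM left no value for Cacna1g, Cacna2d2 and Gem. Counts of 1 to 3 in the lowest libraries limit the precision of single values of Cacna1g, Cacna1c and Cacna2d3, whereas the total of Isl1CKO 4, the lowest for the last 2, was 13537565 counts, within the range of the others.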
